A study of Caenorhabditis elegans with 3 samples.

Results

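Superoxide dismutases, catalases and peroxiredoxins are the enzymes that remove superoxide and hydrogen peroxide. The genes described here are those of a list of 10 from the nematode Caenorhabditis elegans (sod-1 to sod-5, ctl-1 to ctl-3, prdx-2 and prdx-3), taken as every array row whose annotated gene symbol is on the list. Of the 10 genes, 7 had a row and all 7 were tested, among 19293 genes tested in all. These were 4 superoxide dismutase genes (sod-2, sod-3, sod-4 and sod-5), 2 catalase genes (ctl-1 and ctl-2) and 1 peroxiredoxin gene (prdx-3). The other 3 genes, sod-1, ctl-3 and prdx-2, had no row under their own symbol and are not analysed here. Each of the 7 genes had 1 row, and no row was annotated to a listed gene together with another gene.

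Superoxide arises mainly as a by-product of mitochondrial respiration. Superoxide dismutases turn it into hydrogen peroxide, which catalases split into water and oxygen and which peroxiredoxins reduce with electrons passed on by thioredoxin. C. elegans has manganese enzymes in mitochondria (SOD-2 and SOD-3) and copper-zinc enzymes in the cytosol (SOD-1 and SOD-5) or outside the cell and at its surface (SOD-4). Several of the genes are known targets of DAF-16, the transcription factor held out of the nucleus by insulin signalling, and sod-3 is the one most used as its reporter.

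Transcripts were measured on 3 two-colour arrays, which form 1 group. Channel 2 of each array held RNA of adult hermaphrodites, marked "TP12" and "w/ emb 3" in the labels (read here as adults with embryos) and numbered preparation 1, 2 or 3. In channel 1 was a mixed reference of wild type, whose stages the labels do not describe, and neither the genotype nor the age of the adults is given. Nothing in the labels says that the preparations came from separate cultures, so p-values measure only the spread between these arrays, which may be technical.

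Each value is a log2 ratio of the channels, centred near 0 on every array. The question the design answers is therefore which transcripts differed in level between the adults and the pool once each array was centred, and a ratio near 0 says nothing of how abundant a transcript is. The deposited data do not state the direction of the ratio. It is called likely adults over reference, from the channel order and from marker genes. Of 10 oocyte and eggshell markers, 9 had positive ratios that passed the test (median 1.44), and of 10 larval cuticle and moulting markers 9 had negative ones (median -1.18). Yolk markers were less clear: of 3 tested, 1 had a positive ratio that passed and 2 did not pass (median 0.24). "Higher" and "lower" rest on this likely direction and would change places under the opposite one. Replicate 1 stood apart from the others: across all rows its values correlated with those of replicates 2 and 3 at Pearson's r = 0.676 and 0.658, against 0.892 between replicates 2 and 3. The arrays shared the reference and, per the labels, the channel order, and the dyes are not stated, so an effect of the reference would have 1 sign on all of them. Results that rest on replicate 1 are given with and without it.

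One gene of the 7, sod-4, was lower in the adults, at a log2 ratio of -1.50 ± 0.24 (SD, n = 3), or 2.82-fold lower. None of the others passed an adjusted p of 0.05 in limma's test against 0, and none was higher. Among all genes tested 28.5% passed in limma, 14.8% higher and 13.7% lower. The share of 1 of 7 was thus below the 28.5% that passed in either direction and close to the 13.7% that were lower. The median absolute log2 ratio of the 7 genes was 0.15, against 0.27 over all genes tested, and the median ratio was -0.09, against 0.02. Without replicate 1 the lower genes were 2, sod-4 and ctl-2, while 3887 of all genes tested were lower, against 2647 with all arrays.

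**Figure D1:**
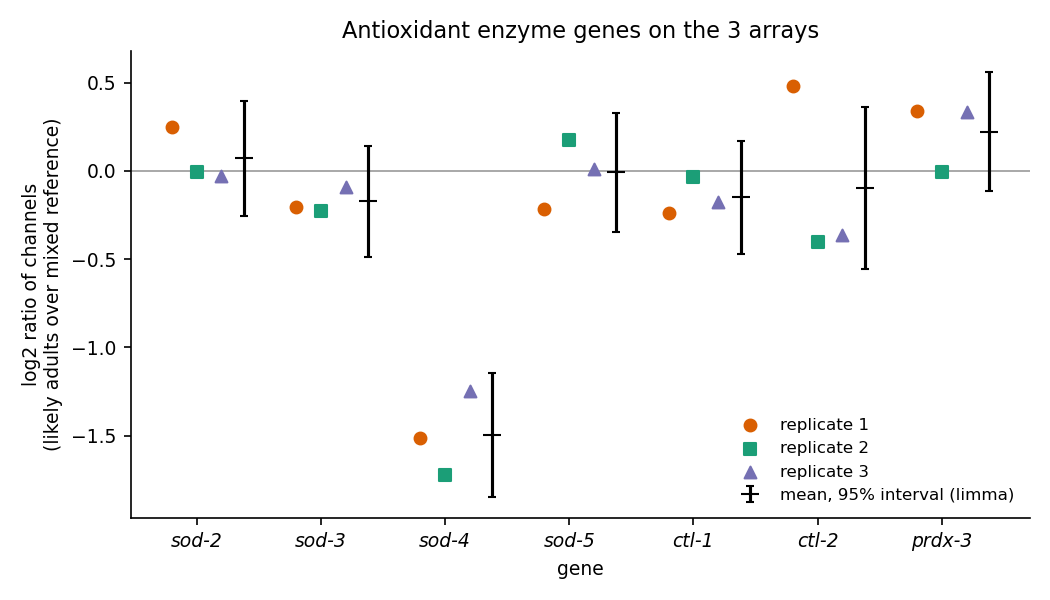
Log2 ratio of the channels (vertical axis) for each of the 7 genes (horizontal axis), with a symbol for each replicate array and, to its right, the mean and limma's 95% interval. The 3 values of sod-4 sit between -1.72 and -1.25, below every value of the other genes, and replicate 1 of ctl-2 sits at 0.48 while its other values are -0.41 and -0.36.

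The manganese superoxide dismutase genes stood near the pool. The gene of the main mitochondrial enzyme, sod-2, had log2 ratios of 0.25, -0.01 and -0.03 in replicates 1, 2 and 3. Its only clearly positive value was thus that of replicate 1. The mean was 0.07 ± 0.15 (SD, n = 3), with a limma 95% interval of -0.26 to 0.40 and an adjusted p of 0.762, and without replicate 1 it was -0.02.

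The gene of the second mitochondrial enzyme, sod-3, had log2 ratios of -0.20, -0.23 and -0.09 in the same order. All 3 were slightly negative, and their SD of 0.07 was smaller than that of all but 7.32% of the genes tested. The mean was -0.17, with an interval of -0.49 to 0.14 and an adjusted p of 0.399 in limma. The difference sod-2 minus sod-3 was positive on all 3 arrays, at 0.45, 0.22 and 0.06, with a mean of 0.24 ± 0.20 (SD, n = 3). The exact two-sided sign-flip test gave p = 0.25, the smallest that 3 arrays allow.

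The extracellular copper-zinc superoxide dismutase gene sod-4 had log2 ratios of -1.51, -1.72 and -1.25 in replicates 1, 2 and 3. It was the lowest of the 7 genes on each array, below the next lowest by 1.28, 1.32 and 0.89. Over all genes tested, 2.05% had a lower mean ratio than sod-4, and 1.79%, 2.28% and 3.06% had a lower value on the arrays of replicates 1, 2 and 3. Its limma interval ran from -1.85 to -1.15, which is 3.59-fold to 2.21-fold lower, with an adjusted p of 0.000518. Its SD was near the median SD of all genes, 0.24. It passed without each replicate in turn, at ratios between -1.62 and -1.38. Each of those fits held 2 arrays and took its variance largely from all genes, so these calls say little of the gene's own spread. The gene sod-4 did not pass when the variance was not shared across genes (adjusted p = 0.128, limma fit without moderation). In that setting no gene of the table passed and 4903 had an unadjusted p under 0.05. RNA came from whole animals, so fewer cells that express a gene and less RNA per cell cannot be told apart. Markers of other tissues differed between adults and pool as well: 4 of 7 neuronal markers and 10 of 12 sperm markers were lower (medians -1.39 and -1.76), and 0 of 6 muscle markers passed (median 0.23). Of 7 intestinal markers 1 was higher and 2 were lower (median -0.18). Their part in the value of sod-4 was not tested.

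The cytosolic copper-zinc gene sod-5, known for its rise in the dauer larva, had log2 ratios of -0.21, 0.18 and 0.01. The arrays gave both signs and the mean was -0.01 ± 0.20 (SD, n = 3), with a limma interval of -0.35 to 0.33 and an adjusted p of 0.976. Without replicate 1 it was 0.10. The difference sod-4 minus sod-5, a pair chosen after the values were seen, was -1.30, -1.90 and -1.26 on the 3 arrays, and the exact sign-flip p was again 0.25.

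The catalase genes ctl-2, ctl-1 and ctl-3 follow each other in that order, with 0 protein-coding genes between them in RefSeq's annotation of assembly WBcel235. They are close relatives in sequence, and no probe sequences were used here, so how far a catalase probe also takes up transcripts of its neighbours is not known. The cytosolic catalase gene ctl-1 had log2 ratios of -0.24, -0.03 and -0.17, all negative and small. The mean was -0.15 ± 0.10 (SD, n = 3), with a limma interval of -0.47 to 0.17 and an adjusted p of 0.478.

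The peroxisomal catalase gene ctl-2 was the gene on which the arrays differed most. It had log2 ratios of 0.48 in replicate 1, -0.41 in replicate 2 and -0.36 in replicate 3. Replicate 1 lay 0.87 above the mean of the other arrays, a larger absolute deviation than in 92.6% of the genes tested, and the SD of 0.50 was larger than in 90.1%. With all arrays the mean was -0.09, with an interval of -0.55 to 0.36 and an adjusted p of 0.773 in limma. Without replicate 1 the mean of the 2 arrays left was -0.38 and passed (adjusted p = 0.0318, limma, interval -0.66 to -0.11). That setting called 4280 genes higher and 3887 lower in all, against 2854 and 2647 with all arrays. The means without replicate 2 (0.06) and without replicate 3 (0.04) did not pass. With arrays weighted by their agreement, where replicate 1 received a weight of 0.282 against 1.12 and 3.16 for replicates 2 and 3, the mean was -0.32 (adjusted p = 0.038, limma). The difference ctl-1 minus ctl-2 was -0.72, 0.37 and 0.19 on the 3 arrays, so the neighbouring catalase genes did not keep 1 order (exact sign-flip p = 1).

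The mitochondrial peroxiredoxin gene prdx-3 had log2 ratios of 0.34, -0.004 and 0.33 in replicates 1, 2 and 3. It had the highest mean of the 7, at 0.22 ± 0.20 (SD, n = 3), with an interval of -0.12 to 0.56 and an adjusted p of 0.308 in limma. Values of replicates 1 and 3 lay close together and that of replicate 2 at the centre of its array. Of the 2 mitochondrial defence steps measured here, dismutation (sod-2 and sod-3) and peroxide reduction (prdx-3), neither gave a ratio that passed the test.

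For the 6 genes other than sod-4, the limma intervals reached down to -0.55 and up to 0.56. Ratios beyond 1.47-fold lower or 1.48-fold higher therefore lay outside every one of these intervals, and smaller differences from the pool lay inside at least 1 of them. The smallest absolute log2 ratio that passed in the whole table was 0.42. In descending order of mean ratio the genes were prdx-3, sod-2, sod-5, ctl-2, ctl-1, sod-3 and sod-4. The 6 neighbouring differences in this order were 0.15 ± 0.19, 0.08 ± 0.34, 0.09 ± 0.69, 0.05 ± 0.58, 0.02 ± 0.15 and 1.32 ± 0.17 (SD, n = 3). Only the last, sod-3 minus sod-4, exceeded its SD. The arrays did not agree on the order above sod-4: the highest gene was ctl-2 in replicate 1, sod-5 in replicate 2 and prdx-3 in replicate 3. Of the 7 genes, 3 (sod-3, sod-4 and ctl-1) had 1 sign on all arrays, which held for 57.4% of all genes tested.

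**Figure D2:**
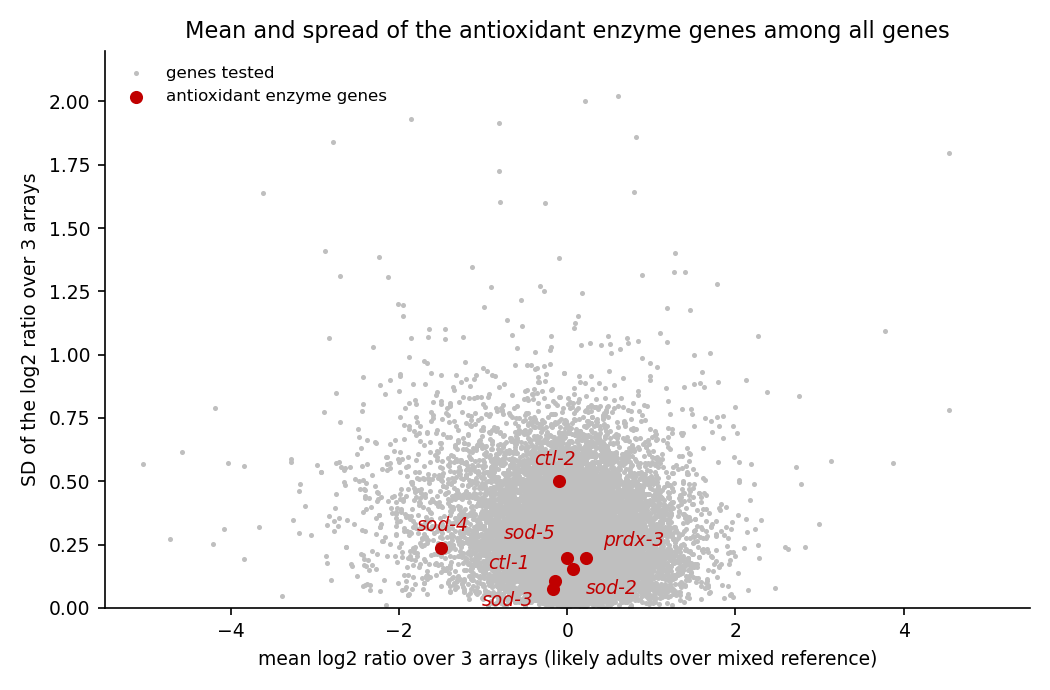
Mean log2 ratio over the 3 arrays (horizontal axis) against its SD (vertical axis), with a grey point for each gene tested and red points for the 7 antioxidant enzyme genes (3 genes lie outside the axes). The gene sod-4 sits at -1.50 with an SD of 0.24, ctl-2 has an SD of 0.50, and the other 5 lie within 0.23 of 0 with SDs between 0.07 and 0.20.

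Around these enzymes, 10 lists of related genes with 117 members were read from the same fit. Of the 103 members tested, 25 were lower (24.3%), 8 were higher (7.77%) and 70 did not pass, against 13.7% lower and 14.8% higher among all genes tested. The median log2 ratio was -0.16, against 0.02 over all genes tested. The lists were chosen with earlier results of these data known, so this contrast is a description and was not tested. The shares of all genes tested are also the background for each list below, for counts with all arrays. The lower genes numbered 35 and the higher ones 17 without replicate 1. The numbers were 17 lower and 5 higher without replicate 2, against 20 lower and 4 higher without replicate 3. Counts over all genes tested moved too, from 2647 lower and 2854 higher with all arrays to 3887 and 4280 without replicate 1. They were 1802 lower and 1916 higher without replicate 2, and 1986 and 1954 without replicate 3. Counts with a replicate left out, here and below, are to be read beside these.

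Other peroxidases and their electron donors mostly did not pass. Of 7 glutathione peroxidase genes tested, 1 was lower (gpx-6 at -0.87 ± 0.16, adjusted p = 0.00354, limma) and 6 did not pass, with a median of -0.02. Of 12 thioredoxin and glutaredoxin genes, 1 was higher, 1 lower and 10 did not pass, with a median of 0.06. The higher gene was the glutaredoxin gene glrx-5 at 0.58 ± 0.07 and the lower one trx-2, which encodes the mitochondrial thioredoxin, at -0.64 ± 0.14 (SD, n = 3). Both lost their call without replicate 2 (0.61 and -0.57) and without replicate 3 (0.57 and -0.65), which left 0 called in that list. Without replicate 1 the lower glutathione peroxidase genes were 2, and the thioredoxin and glutaredoxin list had 3 higher and 2 lower.

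Glutathione synthesis and NADPH supply held 1 higher, 1 lower and 5 genes that did not pass of 7 tested, with a median log2 ratio of 0.29. The lower gene was nnt-1, the mitochondrial transhydrogenase that makes NADPH, with log2 ratios of -1.92, -1.84 and -1.46 in replicates 1, 2 and 3. All were far below 0, with a mean of -1.74 ± 0.25 (SD, n = 3; adjusted p = 0.000306, limma), or 3.34-fold lower. The higher gene was the malic enzyme gene men-1, another source of NADPH, at 0.76 ± 0.50 (adjusted p = 0.0237, limma). Its value in replicate 1, 1.33, was the highest, against 0.41 and 0.53 in replicates 2 and 3, and without replicate 1 its mean was 0.47 (adjusted p = 0.0141, limma). Without replicate 1 this list had 3 higher genes.

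Genes that produce hydrogen peroxide for cuticle cross-linking, or use it there or in defence, form a list of their own. Of 8 dual oxidase and haem peroxidase genes tested, 5 were lower, 1 was higher and 2 did not pass, with a median log2 ratio of -0.60. The difference between this list and the enzymes that remove peroxide was not tested. The lower gene with the smallest p was the peroxidase gene skpo-3 at -0.63 ± 0.16, and the higher one was skpo-1 at 1.22 ± 0.16 (SD, n = 3; adjusted p = 0.00087, limma). Without replicate 1 the lower genes were 6. Without replicate 2 the lower genes were 3 and skpo-3 did not pass (-0.56), and it did not pass without replicate 3 either (-0.62). The list holds mlt-7, which is also among the larval cuticle and moulting markers above, of which 9 of 10 were lower; the part of moulting in this list was not tested.

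Among 11 genes of the respiratory chain and of mitochondrial functions tied to superoxide, 1 was higher, 2 were lower and 8 did not pass, with a median log2 ratio of -0.17. The higher gene was the uncoupling protein gene ucp-4 at 0.87 ± 0.21 and the lower one with the smallest p was sdha-1, a subunit of succinate dehydrogenase, at -0.62 ± 0.24 (SD, n = 3). The lower genes were 4 without replicate 1, 0 without replicate 2 (sdha-1 at -0.48) and 1 without replicate 3.

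Of 18 regulators of the oxidative stress response tested, 3 were higher, 3 lower and 12 did not pass, with a median log2 ratio of 0.15. With all arrays 14.8% of all genes tested were higher and 13.7% lower, so these counts stood close to the background. The lipid phosphatase gene daf-18, which opposes insulin signalling upstream of DAF-16, had log2 ratios of 1.33, 1.50 and 1.53 in replicates 1, 2 and 3. All 3 were high, with a mean of 1.45 ± 0.11 (SD, n = 3; adjusted p = 0.000417, limma). The kinase gene akt-2, whose product phosphorylates DAF-16, stood at -0.82 ± 0.27 (adjusted p = 0.00623, limma). The other higher genes were age-1 (0.63 ± 0.50, adjusted p = 0.048, limma) and hsf-1, and the other lower ones were sgk-1 and nsy-1. The log2 ratios of age-1 were 0.07, 0.76 and 1.06 in replicates 1, 2 and 3, so replicate 1 lay near 0. The genes daf-2, pdk-1 and akt-1 were among those that did not pass. The higher and lower counts were 4 and 5 without replicate 1, 1 and 1 without replicate 2, and 1 and 2 without replicate 3. The shares given for all arrays are not the background of these smaller fits. Dropping replicate 1 raised the calls in the whole table from 2854 higher and 2647 lower to 4280 and 3887. Dropping replicate 2 reduced them to 1916 and 1802, and dropping replicate 3 to 1954 and 1986.

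Of 9 other known DAF-16 targets tested, 5 were lower and 4 did not pass, with a median log2 ratio of -1.27. The lowest was hsp-12.6, which encodes a small heat shock protein, at -4.04, -4.41 and -3.80 in replicates 1, 2 and 3. The 4 that did not pass were lys-7 (0.42), lea-1 (0.33), hsp-16.11 (-0.25) and hsp-16.1 (-0.28). The DAF-16 target sod-3, at -0.17, did not pass either. Of 6 SKN-1 targets, 2 were lower and 4 did not pass, with a median of -0.29, and the one with the smallest p was the nitrilase gene nit-1 at -0.93 ± 0.20 (SD, n = 3; adjusted p = 0.003, limma). Without replicate 1 the lower genes among the other DAF-16 targets were 6, and 2 SKN-1 targets were higher besides the lower ones.

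Peroxisomes house the ctl-2 enzyme. Of 20 genes of peroxisome assembly and peroxisomal oxidation tested, 1 was higher, 3 were lower and 16 did not pass, with a median log2 ratio of -0.14. With all arrays 28.5% of all genes tested passed, 14.8% higher and 13.7% lower. The assembly gene prx-2 had log2 ratios of -1.94, -1.91 and -1.84 in replicates 1, 2 and 3. The arrays lay close together, with a mean of -1.90 ± 0.05 (SD, n = 3; adjusted p = 0.000169, limma), or 3.72-fold lower. The assembly gene prx-14 was higher, at 0.64 ± 0.16, and did not pass without replicate 3 (0.64, adjusted p = 0.0661, limma). Leaving out replicate 1 gave 2 higher and 5 lower genes, and leaving out replicate 3 gave 0 higher. Calls in the whole table moved in those fits too, as given above.

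Metal handling bears on these enzymes because dismutases carry copper and zinc or manganese, and free iron reacts with hydrogen peroxide. Of 5 genes tested, 2 were lower and 3 did not pass, with a median log2 ratio of -0.12. The lower genes were those of the iron store ferritin, ftn-1 at -2.03 ± 0.29 (adjusted p = 0.000214, limma) and ftn-2 at -0.998 ± 0.14 (adjusted p = 0.0019, limma; SD, n = 3). The copper pump gene cua-1 stood at 0.22 ± 0.48 and the metal ion importer genes smf-1 and smf-2 at -0.12 ± 0.18 and 0.04 ± 0.10, and none of the 3 passed. Without replicate 1 there was 1 higher gene.

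**Figure D3:**
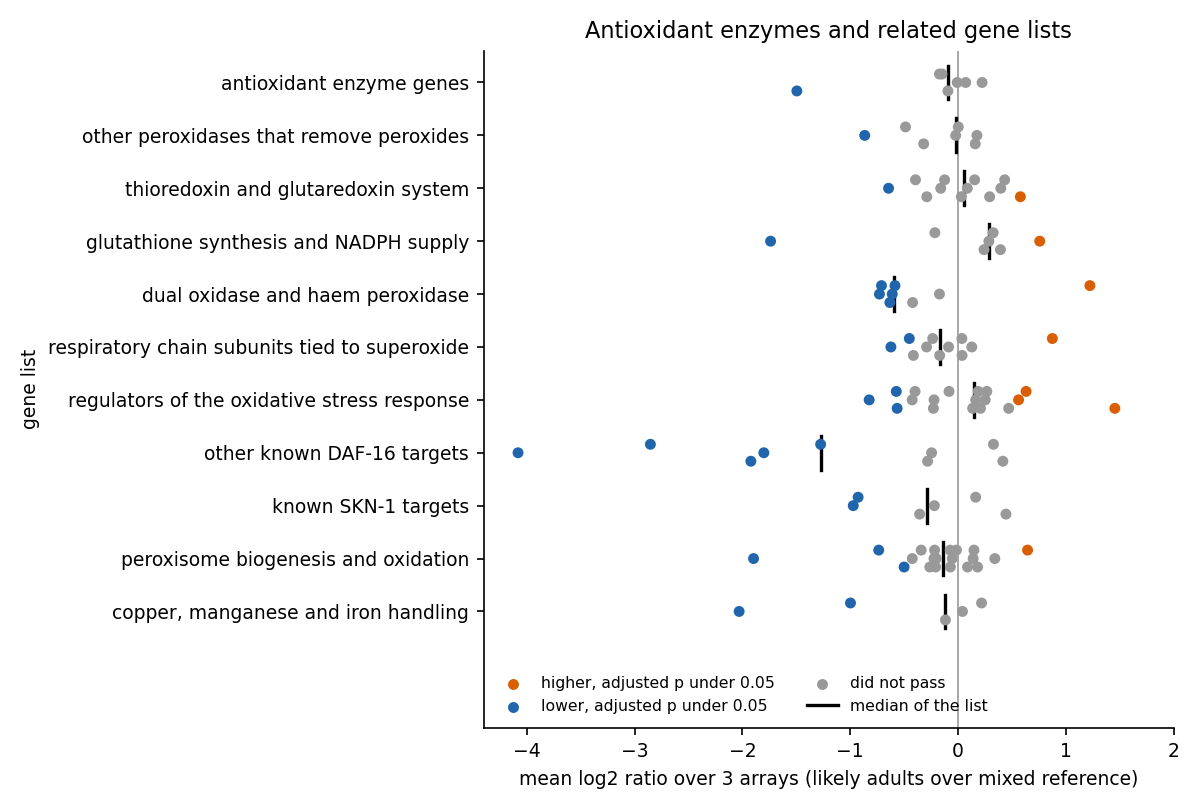
Mean log2 ratio over the 3 arrays (horizontal axis) of every tested gene of the antioxidant enzymes and of the 10 related lists (vertical axis), coloured by limma's call, with a black line at the median of each list. Medians lie between -1.27 for other DAF-16 targets and 0.29 for glutathione synthesis and NADPH supply, and sod-4 is the single coloured point among the antioxidant enzymes.

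**Figure D4:**
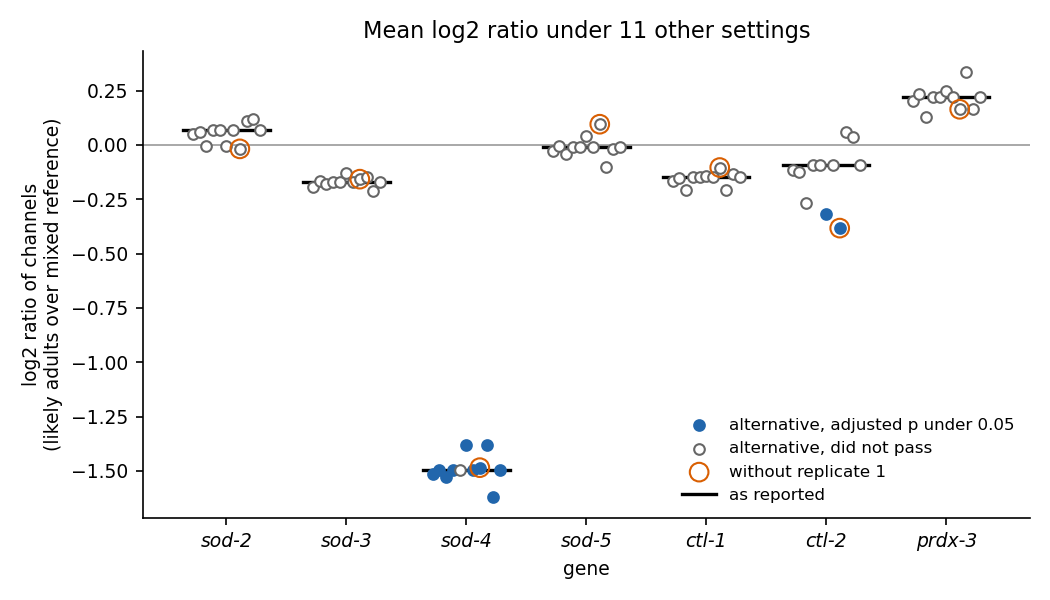
Mean log2 ratio of each of the 7 genes (horizontal axis) under 11 alternative settings (points, filled where the adjusted p was under 0.05) and as reported (black line), with the value without replicate 1 ringed. The points of sod-4 lie between -1.62 and -1.38, and those of ctl-2 run from -0.38 to 0.06 on both sides of 0.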

How the data were processed

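The authors deposited 1 log2 ratio of the channels per row and array, for 20000 rows. That the log base is 2 follows from the numbers: turned back into linear ratios, every one of the 59554 below 10 was a multiple of 0.001 (tolerance 0.01 of a step). The array means were -0.0028, -0.0034 and -0.0020. The sources used here do not give dyes, scanner, background correction or normalisation, and no spot intensities were used, so dim or saturated spots could not be set apart. How far background or saturation moved the ratios, and in which direction, is therefore not known. The number of arrays limits the precision.

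Rows were named from the platform annotation of 2007, and their symbols were looked up in RefSeq by gene identifier, which matched 15569 of 15655 rows with 1 symbol and changed 0 symbols. Rows of 1 symbol were averaged per array. Genes with values on all 3 arrays were tested against 0 in limma 3.58.1 (R 4.3.3; lmFit, eBayes, two-sided), with Benjamini-Hochberg adjustment over all 19293 genes and a threshold of 0.05. The test was checked on simulated data, in which few genes changed and the arrays were alike. It recovered 2% of log2 changes of 0.5, 65.6% of changes of 1 and 98.8% of changes of 2, and 5.09% of the calls were false. The arrays described here were not alike, and 28.5% of the genes tested passed, far from few. These shares therefore need not hold for the data described here. There were 0 columns of no sample.

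The members and lists were chosen with earlier results of these data known. Named genes were all members and, in each related list, the gene with the smallest p among those higher and among those lower. The other ferritin, copper and manganese genes, the other regulators and the DAF-16 targets that did not pass were added after their values were seen. Alternatives changed the centring, scale, moderation, weights, missing-value filter, row averaging and replicates.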

Additional observations from a re-analysis of the deposited data

How the results depend on the processing

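The ratio of sod-4 kept its direction under all 11 alternatives and its call under 10. Without variance moderation it stood at -1.50 with an adjusted p of 0.128, and there 0 members, 0 related genes in either direction and 0 of all genes passed in limma (4903 at an unadjusted p under 0.05), because each gene then has only its own 2 residual degrees of freedom. The small ratios changed sign: sod-2 was -0.0065 with 32 blocks of rows centred and -0.0066 with array weights, and between -0.0182 and 0.121 with a replicate left out. The ratio of sod-5 was 0.0394 with array weights and between -0.101 and 0.0953 with a replicate left out. For ctl-2 the range was -0.383 to 0.061 (0.061 without replicate 2 and 0.0384 without replicate 3), and with array weights it was -0.32 and passed. Array weights gave 2 lower members, 20 higher related genes, and 4874 higher and 4413 lower genes in all. Fits with a replicate left out held 2 arrays each and took their variance largely from all genes. They gave 1 to 2 lower members and 4 to 17 higher related genes, while the higher genes in all ran from 1916 to 4280. The cause of these shifts was not tested. The sod-3, ctl-1 and prdx-3 ratios kept their sign and did not pass under any alternative. Of 176 checks of the related genes named for their smallest p, 24 lost the call and 0 changed sign. No paired analysis was possible because the arrays form 1 group. Signal over background was not used here, so its limits are unknown.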
